A study of Homo sapiens with 18 samples.

Results

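The response to a NEAT1-directed oligonucleotide was compared between 2 human multiple myeloma cell lines, labelled AMO1 and LP1. The response is the level in the libraries labelled gN1E minus that in the libraries labelled SCR, on a log2 scale, and the quantity studied is the response in AMO1 minus the response in LP1. It was tested as an interaction in 1 fit of the 12 libraries labelled AMO1 or LP1, out of 18 in the series, with 3 libraries for each line and oligonucleotide. The other 6 libraries carry the label H929, also a myeloma line, and do not enter the fit of the comparison. They were used to choose the NEAT1 segment below, as a further set of values, and in 1 alternative fit. Each library is total RNA of an established cell line taken 48 h after GapmeR delivery by gymnosis, the uptake of an oligonucleotide without a transfection reagent. The GapmeR was gN1E, directed against NEAT1, or SCR, a scrambled control. Both groups of a line thus received an oligonucleotide, and no untreated library was analysed. A letter names each replicate (A, C and D in AMO1, A, B and D in LP1, A, B and C in H929). Nothing says that the letters mark separate cultures, so the p-values measure the spread between these libraries, which may be technical.

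NEAT1 is a long non-coding RNA of the nucleus and the scaffold of paraspeckles, RNA-protein bodies that hold back other RNAs and proteins. A GapmeR is a short antisense oligonucleotide whose ends carry locked nucleic acids around a central stretch of DNA, and RNase H cuts the RNA with which that stretch pairs. RNase H acts in the nucleus as well as in the cytoplasm, so introns of unspliced transcripts are within reach of such oligonucleotides. Plasma cells, which secrete antibodies and belong to the B lineage, are the malignant cells in multiple myeloma.

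Inside the deposited tables the written names swap SCR and gN1E throughout, and swap H929 and LP1. The sample label names each library here. NEAT1 (ENSG00000245532.11, chr11:65422774-65445540 of hg38, plus strand) goes against those labels. In the libraries labelled AMO1 it stood at 74.8, 77 and 88.3 CPM (TMM-normalized counts scaled to a fixed library total, with replicates in the order of their letters) under SCR and at 466, 532 and 502 CPM under gN1E. In those labelled LP1 it stood at 130.1, 168 and 185 CPM under SCR and at 645, 653 and 821 CPM under gN1E. The libraries labelled gN1E were above those labelled SCR in both lines, with no overlap (two-sided exact permutation test within each line, p = 0.1, the smallest that 3 against 3 libraries allow). A rise below therefore means a higher level in the libraries in which NEAT1 was also higher.

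The response of NEAT1 was 2.64 (standard error 0.150) in AMO1 and 2.13 (standard error 0.146) in LP1. The difference of 0.51 (standard error 0.200, adjusted p = 0.462) did not pass the threshold of 0.05 in edgeR's quasi-likelihood test, which gives every adjusted p below. With the replicate letter as a block in the fit it did pass, at 0.51 (adjusted p = 0.00236). MALAT1, whose gene lies next to NEAT1, differed by 0.20 (standard error 0.0871, adjusted p = 0.473).

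Total counts per library ran from 53227560 to 66142827 in AMO1 SCR, from 28061606 to 49784737 in AMO1 gN1E, from 56542997 to 69937229 in LP1 SCR and from 44091209 to 57247024 in LP1 gN1E. The shallowest of the 4 groups was AMO1 gN1E. Markers of plasma cells were present in both lines: the 10 genes summed to between 17588 and 19854 CPM of all counts in AMO1 and between 11150 and 12155 CPM in LP1. SDC1 alone averaged 11090 CPM in AMO1 and 1180 CPM in LP1. CD38 and POU2AF1 also averaged higher in AMO1, whereas TNFRSF17, PRDM1, XBP1, IRF4, MZB1, JCHAIN and SLAMF7 averaged higher in LP1. Of the markers of other cells, the 5 of T cells summed to between 312 and 367 CPM in AMO1 and between 9.85 and 14.96 CPM in LP1, and CD4 alone averaged 308 CPM in AMO1 with CD3D at 0.0156 CPM. The 6 of B cells summed to between 257 and 299 CPM in AMO1 and between 6.77 and 8.10 CPM in LP1, and CIITA alone averaged 270.1 CPM in AMO1. Myeloid markers summed to at most 8.62 CPM, fibroblast markers to at most 1.80 CPM and erythroid markers to at most 8.84 CPM. Within a line the B and T cell sums under SCR and gN1E overlapped. In LP1 the myeloid sums did not, at 6.37 to 8.62 CPM under SCR and 3.37 to 5.85 CPM under gN1E. CSF1R alone averaged 5.82 CPM in LP1, and LYZ, the next highest myeloid marker there, 0.112 CPM. The plasma cell sums in LP1 did not overlap either, at 11150 to 11415 CPM under SCR and 11495 to 12155 CPM under gN1E. The part of these markers in the response differences was not tested. Mitochondrial transcripts took between 1.44% and 2.40% of the counts in AMO1 and between 1.6% and 3.48% in LP1. The libraries labelled H929 resembled those labelled AMO1 in level: of 11090 genes above 3 log2 CPM in at least 1 label, 311 (2.8%) differed over 4-fold between AMO1 and H929, 1474 (13.3%) between AMO1 and LP1, and 1282 (11.6%) between H929 and LP1. The immunoglobulin gene IGHV3-23 had 0 counts in every LP1 library and between 51156 and 114535 in every library labelled AMO1 or H929. The identity of the lines was not tested.

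Many of the genes described below, though not all, share a part of 1 segment of NEAT1, so its sequence is given first. The shared part differs between genes. Each 11-base stretch of NEAT1 was scored by the median response, in the 6 libraries labelled H929 alone, of the genes that carry it on their transcribed strand. The genes scored had an average of at least 2 log2 CPM over the 12 libraries labelled AMO1 or LP1. Those 12 libraries thus set which genes counted, and H929 set the responses. Of 21680 stretches carried by at least 20 such genes, the highest median was 0.31, over 242 genes, against 0.04 for the median stretch. The second highest, at 0.19, starts 1 base before it. The top stretch with 5 bases on each side makes a segment of 21 bases at chr11:65425848-65425868 of hg38, plus strand, within NEAT1. The sequence of the GapmeR is not given in the sources used here. The segment is shown 5′ to 3′ with the top stretch in capitals, and below it, for genes whose response differed between AMO1 and LP1, the longest run shared with the segment (capitals) and 7 bases on each side, on the transcribed strand. The first 8 genes rose more in AMO1, and the last pair fell in AMO1 and not in LP1.
NEAT1 segment: accttTTGTGGTCACTgtaaa
EXOC4: agcatcaTTGTGGTCACTGagctctt
GMDS: ccttttcTGGTCACTGTAAgtttaga
PPP3CA: gaataatACCTTTTGTGGTCtcaaata
FOXN3: cctggtgCTTTTGTGGTCACTcatggac
LTB4R: ctgctgcTGTGGTCACTGTAtattttg
SEMA4D: cacccagTTTGTGGTCACTGgtgagag
TTC27: cttttatCCTTTTGTGGTCACaagattc
ZWILCH: tctttctACCTTTTGTGGTCAactttta
CD180: aatgtgtGTCACTGTAAAgtatttt
PXDN: acagcagGTGGTCACTGTggctgga

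These windows lie at chr7:133557055-133557080 (EXOC4, plus strand), chr6:1684625-1684650 (GMDS, minus), chr4:101305293-101305319 (PPP3CA, minus), chr14:89426180-89426207 (FOXN3, minus), chr14:24315375-24315401 (LTB4R, plus) and chr9:89445354-89445380 (SEMA4D, minus). The others lie at chr2:32784471-32784498 (TTC27, plus), chr15:66546874-66546901 (ZWILCH, plus), chr5:67184634-67184658 (CD180, minus) and chr2:1651589-1651613 (PXDN, minus). By the exons of the deposited tables the window of ZWILCH overlaps an exon and the others are intronic. EXOC4 carries 3 runs of its longest length and GMDS carries 2, of which the first is shown. A match is a description of the sequence and not a binding site.

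Of 25769 genes tested, 103 (0.4%) had a response that differed between AMO1 and LP1 at an adjusted p under 0.05, and 2378 at an unadjusted p under 0.05. The difference was above 0 for 79 genes (0.307%) and below 0 for 24 (0.0931%). With library size as the sole scaling of the counts, 46 genes were above 0 and 44 below. With the replicate letter as a block the count was 184, of which 102 are among the 103. Without AMO1 gN1E replicate D the count was 62, with 49 genes above 0 and 13 below, and without AMO1 SCR replicate D it was 66, with 50 above and 16 below. The 40 target genes of the study account for 10 of the 79 and for none of the 24. The remaining 93 genes, 69 above 0 and 24 below, are the subject of what follows. At the threshold the values are close. FBXL5, just inside it, differed by 0.44 at an adjusted p of 0.0485, and SUPT3H, just outside, by 0.40 at 0.0507.

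The 69 genes above 0 were mostly genes that rose in AMO1 and responded less in LP1. Each of the 69 had a positive response in AMO1, and 59 passed the threshold there (of all genes, 2.11% passed in AMO1 and 1.54% upward). With the block 937 genes passed in AMO1, against 543 without it. In LP1, 48 had a positive response and 21 a negative one, with 14 past the threshold upward and 9 downward (of all genes, 0.512% passed in LP1, 0.303% upward and 0.21% downward). The median response of the 69 was 0.63 in AMO1 and 0.10 in LP1. The libraries labelled gN1E and SCR did not overlap for 62 of the 69 genes in AMO1 and for 48 in LP1, where 15.8% and 17.1% of all genes were separated in this way. With gN1E above SCR these background shares were 7.49% in AMO1 and 8.53% in LP1, and with gN1E below SCR 8.3% and 8.6%. Since the same contrast chose the genes, these values describe them and are not a test.

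**Figure D1:**
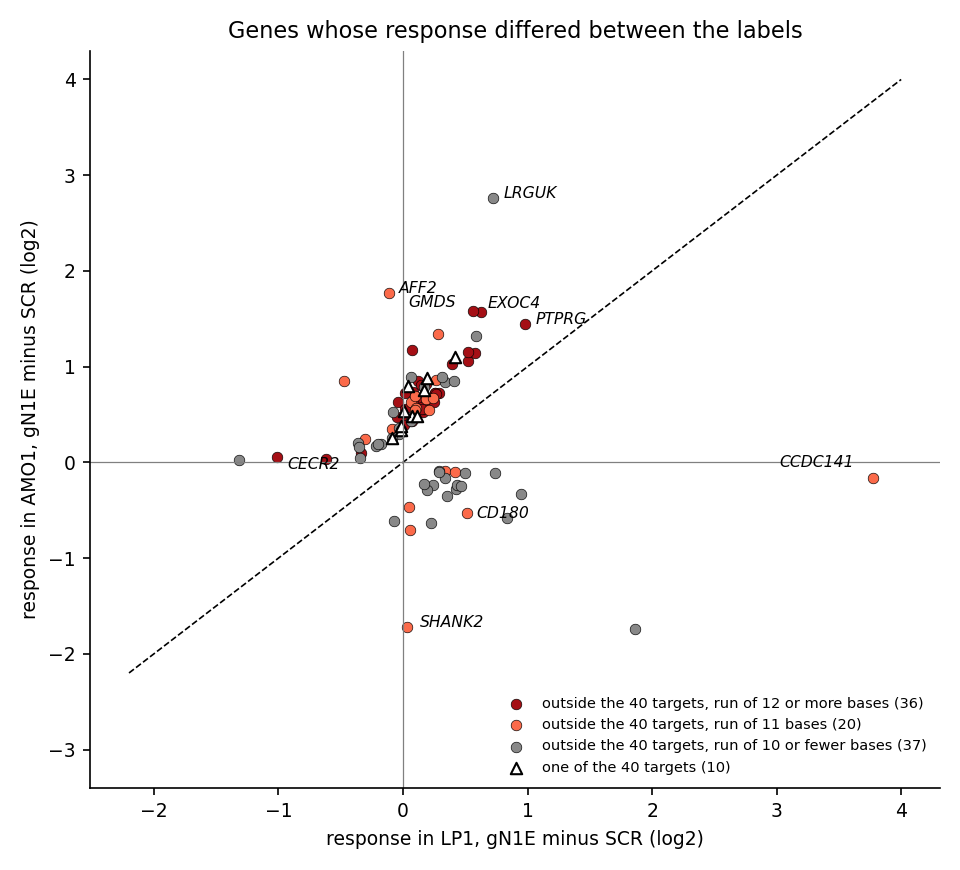
Response in LP1 (horizontal axis, log2) against response in AMO1 (vertical axis, log2) for the 103 genes whose response differed, coloured by the longest run shared with the NEAT1 segment. The dashed line marks equal responses. The 69 genes above it outside the 40 targets had a median response of 0.63 in AMO1 and 0.10 in LP1, and 36 of them have a run of 12 or more bases.

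Of the 69 genes, 14 rose in both lines and rose more in AMO1. EXOC4 (ENSG00000131558.15, chr7:133253073-134066589), a subunit of the exocyst that tethers secretory vesicles to the plasma membrane, had the lowest p of all genes. It stood at 41.2, 41.9 and 37.4 CPM in AMO1 SCR, 118, 119.9 and 121 in AMO1 gN1E, 40.9, 46.2 and 48.4 in LP1 SCR and 66.8, 70.7 and 71.1 in LP1 gN1E. The SCR libraries of the lines overlapped, while every gN1E library of AMO1 was above every one of LP1. The response was 1.57 (standard error 0.0627) in AMO1 and 0.62 (standard error 0.0620) in LP1, a difference of 0.95 (standard error 0.0873, adjusted p = 1.44e-06).

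GMDS (ENSG00000112699.11, chr6:1623806-2245605), the enzyme that starts the synthesis of GDP-fucose, stood at 7.0, 7.31 and 6.51 CPM in AMO1 SCR and 22.4, 20.1 and 19.6 in AMO1 gN1E. In LP1 it stood at 11.7, 13.7 and 12.2 CPM under SCR and 18.3, 18 and 19.1 under gN1E. The SCR libraries of AMO1 were below those of LP1 and its gN1E libraries above, so the rise was steeper in AMO1. Its response differed by 1.02 (standard error 0.121, adjusted p = 3.91e-05). PPM1L, a membrane-bound protein phosphatase, rose from 52.5, 41.5 and 40.5 CPM to 111, 116 and 108 in AMO1 and from 18.8, 20.4 and 20.1 to 28.4, 30.2 and 30.6 in LP1, a difference of 0.73 (standard error 0.109, adjusted p = 0.000943). ZWILCH, a kinetochore protein of the spindle checkpoint, differed by 0.63 (standard error 0.101, adjusted p = 0.00149), with responses of 1.03 in AMO1 and 0.40 in LP1. TTC27, a tetratricopeptide repeat protein, differed by 0.63 (standard error 0.127, adjusted p = 0.0188), with responses of 1.15 and 0.52. PPM1L carries a run of 10 bases of the segment, EXOC4 and GMDS of 12, and ZWILCH and TTC27 of 14.

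Across the 14 genes the LP1 response was between 30.4% and 68.0% of the AMO1 response on the log2 scale, with a median of 39.8%. For NEAT1 itself it was 80.7%. Those 14 were chosen for their difference. Over all 47 genes besides NEAT1 that rose in both lines, whether or not the difference passed, the median was 60.4%, with a range from 30.4% to 147%, and 38 of the 47 were below the share of NEAT1.

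Another 44 of the 69 genes rose in AMO1 and did not pass the threshold in LP1. Which genes pass in LP1 depends on single libraries: over all genes 132 passed, against 39 without LP1 SCR replicate A, 55 without SCR replicate B or gN1E replicate A, 80 and 76 without gN1E replicates B and D, 239 without SCR replicate D and 388 with the block, so the split into 14 and 44 genes is not firm. PPP3CA (ENSG00000138814.17, chr4:101023409-101348278), the catalytic subunit of the phosphatase calcineurin, stood at 78.4, 70.1 and 65.3 CPM in AMO1 SCR and at 126, 129.7 and 129.7 in AMO1 gN1E. In LP1 it stood at 135, 141 and 138 CPM under SCR and 147, 152 and 151 under gN1E. The LP1 libraries were separated as well, by a response of 0.12 (standard error 0.0557, adjusted p = 0.463), against 0.85 (standard error 0.0567) in AMO1. The difference was 0.73 (standard error 0.0793, adjusted p = 1.19e-05).

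FOXN3, a forkhead transcriptional repressor, stood at 160.3, 146 and 131 CPM in AMO1 SCR and 264, 253 and 257 in AMO1 gN1E, and at 199, 211 and 210.2 in LP1 SCR and 224, 233 and 249 in LP1 gN1E. Its response differed by 0.64 (standard error 0.0851, adjusted p = 0.000156). UBE2H, a ubiquitin-conjugating enzyme, stood at 110.1, 101 and 91.1 CPM in AMO1 SCR and 148, 163 and 158 in AMO1 gN1E, and its LP1 libraries overlapped, at 164, 169 and 174 CPM under SCR and 162, 169 and 163 under gN1E. The difference in response was 0.67 (standard error 0.0834, adjusted p = 7.33e-05). TRPS1, a zinc finger repressor, differed by 0.71 (adjusted p = 0.00179), with responses of 0.73 in AMO1 and 0.02 in LP1. KATNAL2, a relative of the microtubule-severing protein katanin, differed by 1.06 (adjusted p = 0.00353), with responses of 1.34 and 0.28.

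LTB4R (ENSG00000213903.9, chr14:24311450-24318036), a leukotriene receptor of immune cells, had the largest positive difference among genes with at least 1 CPM in each line and an average of at least 2 log2 CPM. It stood at 9.64, 7.78 and 10.4 CPM in AMO1 SCR and 20.6, 21.1 and 20.7 in AMO1 gN1E. Its level in LP1 was 28.5, 27.8 and 25.4 CPM under SCR and 28.4, 27.3 and 30.3 under gN1E, and those libraries overlapped. The difference was 1.10 (standard error 0.121, adjusted p = 1.23e-05). NOP9, a nucleolar protein of ribosome assembly, lies upstream on the same strand of chromosome 14, and LTB4R2 overlaps both. NOP9 stood at 32, 29.8 and 33.9 CPM in AMO1 SCR, 62.1, 58.1 and 57.4 in AMO1 gN1E, 118, 114 and 115 in LP1 SCR and 122, 122 and 119 in LP1 gN1E, a difference of 0.83 (standard error 0.0781, adjusted p = 1.44e-06). LTB4R2 differed by 0.71 and did not pass (adjusted p = 0.0699). Since these genes overlap on one strand, the reads of this locus may not be fully separated. LTB4R carries a run of 13 bases of the segment and NOP9 one of 9.

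**Figure D2:**
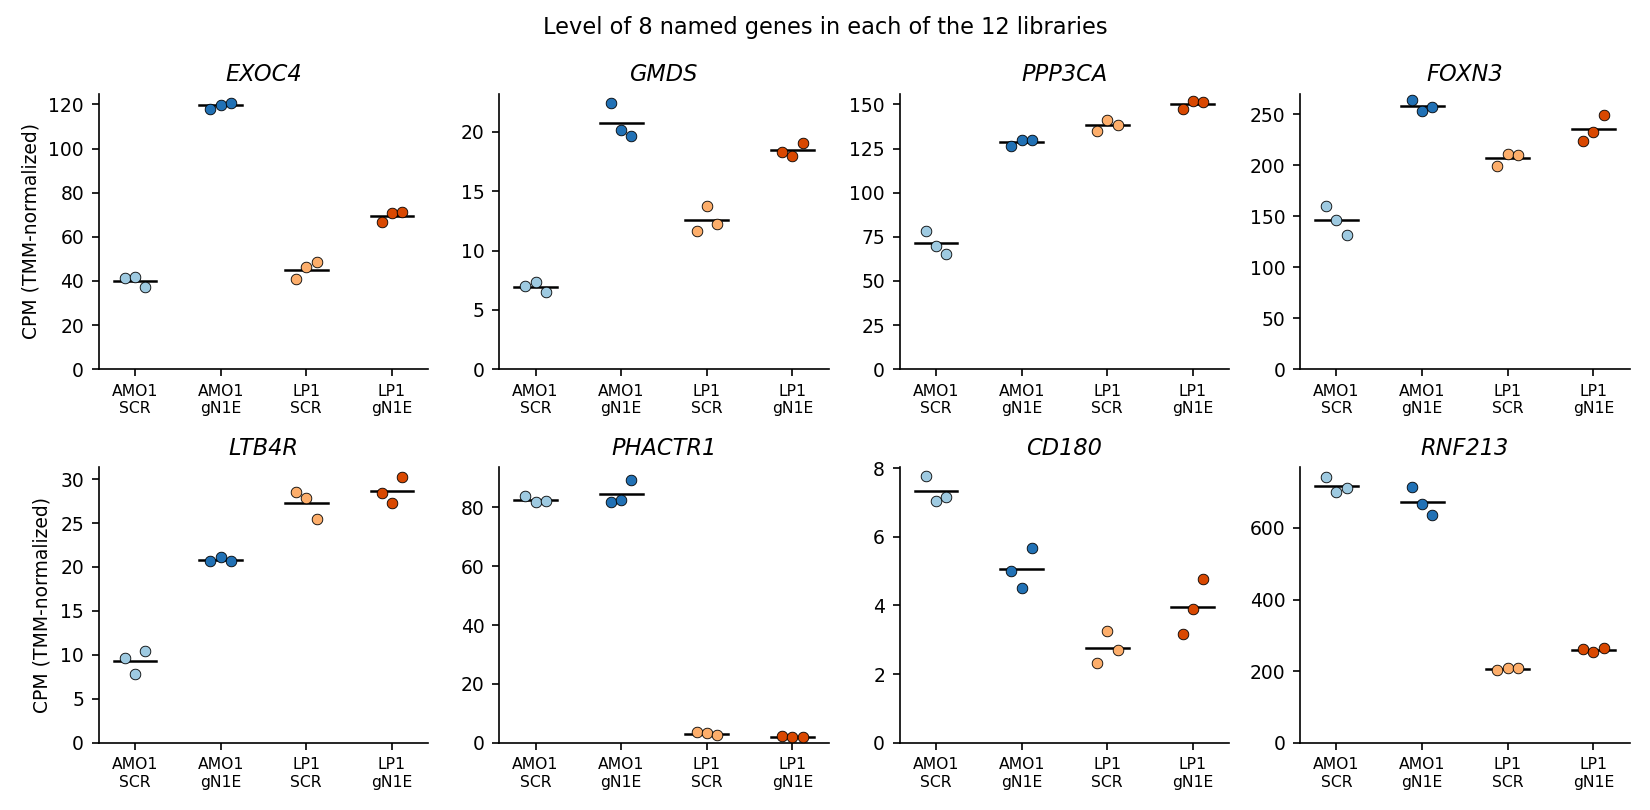
Level of 8 genes in each of the 12 libraries, in CPM with TMM normalization on a linear axis from 0. Points are libraries and bars are the means of 3. EXOC4 stood between 37.4 and 48.4 CPM in all SCR libraries and reached 121 CPM in AMO1 gN1E and 71.1 CPM in LP1 gN1E.

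A further 8 of the 69 genes fell in LP1 and did not pass in AMO1. PHACTR1 (ENSG00000112137.19, chr6:12716312-13290446), a regulator of actin and of a protein phosphatase, stood at 83.7, 81.9 and 82.1 CPM in AMO1 SCR and 81.8, 82.6 and 89.4 in AMO1 gN1E. In LP1 it was far lower, at 3.49, 3.23 and 2.65 CPM under SCR and 2.19, 2.0 and 1.94 under gN1E. The response was -0.61 in LP1 (adjusted p = 0.00403) and 0.03 in AMO1 (adjusted p = 0.917), a difference of 0.65 (standard error 0.124, adjusted p = 0.0125). CECR2, a bromodomain protein of chromatin remodelling complexes, stood at 8.04, 7.20 and 7.79 CPM in AMO1 SCR and 7.44, 8.47 and 8.01 in AMO1 gN1E, which overlapped, and at 1.18, 1.27 and 1.57 in LP1 SCR and 0.657, 0.524 and 0.804 in LP1 gN1E, which did not. Its 3 SCR libraries of LP1 held 235 reads together and the 3 gN1E libraries 92, and the difference was 1.06 (standard error 0.226, adjusted p = 0.028). MKRN4P, a makorin pseudogene with 96 and 30 reads in those LP1 libraries, differed by 1.34 (adjusted p = 0.0407). Reads of a pseudogene and of its parent gene may not be fully separated. CECR2 lost its call in 9 of 23 alternatives and MKRN4P in 13.

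RASGRP3, an exchange factor for Ras that was singled out after its values were seen, was the 1 gene of the 69 that passed in both lines in opposite directions. It stood at 198, 193 and 173 CPM in AMO1 SCR and 211, 225 and 232 in AMO1 gN1E, and at 48.7, 49.2 and 47.9 in LP1 SCR and 37.2, 39.4 and 41.5 in LP1 gN1E. The responses were 0.24 (adjusted p = 0.0166) and -0.31 (adjusted p = 0.0119). LRGUK and AFF2, both under the level limit of the naming rule and also singled out afterwards, had the largest positive differences of all. LRGUK rose from 0.505, 0.454 and 0.419 CPM to 2.59, 3.21 and 3.69 in AMO1 and had 0.827, 0.904 and 1.13 CPM and 1.48, 1.36 and 1.89 CPM in LP1 SCR and gN1E, a difference of 2.04 (standard error 0.312, adjusted p = 0.000943). LRGUK lies downstream of EXOC4 on the same strand of chromosome 7, and whether transcripts that run on from EXOC4 add to its reads was not tested. AFF2, a nuclear RNA-binding protein, differed by 1.89 (standard error 0.244, adjusted p = 0.000105), with responses of 1.77 in AMO1 and -0.12 in LP1.

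The 24 genes below 0 had the opposite form, a fall in AMO1 or a rise in LP1. Each of the 24 had a negative response in AMO1, and 23 had a positive one in LP1. The threshold was passed by 8 in AMO1, all downward, by 10 in LP1, all upward, by none in both lines and by 6 in neither. Of all genes, 0.563% passed downward in AMO1 and 0.303% upward in LP1. Their median response was -0.26 in AMO1 and 0.35 in LP1. The number below 0 was 6 with limma-voom (52 above 0), 12 with counts thinned to the shallowest library (70 above) and 56 with the block (128 above). Leaving out 1 library gave from 8 to 36 genes below 0, with 8 without LP1 SCR replicate A, 15 without SCR replicate B, and 10, 14 and 11 without gN1E replicates A, B and D of LP1, whereas those above 0, targets included, numbered from 49 to 118. Of the 24, 5 have no symbol.

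Among the genes that fell in AMO1, CD180 (ENSG00000134061.5, chr5:67179613-67196799), a Toll-like receptor homologue of B cells, stood at 7.76, 7.04 and 7.16 CPM under SCR and 5.01, 4.51 and 5.66 under gN1E. In LP1 it stood at 2.31, 3.25 and 2.71 CPM under SCR and 3.17, 3.88 and 4.77 under gN1E, and these libraries overlapped. The difference was -1.04 (standard error 0.208, adjusted p = 0.0174), and 5 of 23 alternatives ended its call. DYNC2H1, the heavy chain of the dynein that carries cargo inside cilia, stood at 7.78, 9.40 and 6.88 CPM in AMO1 SCR and 4.40, 4.78 and 5.72 in AMO1 gN1E, a response of -0.71 (adjusted p = 0.000305). Its LP1 libraries overlapped, at 47.1, 48.1 and 53.5 CPM under SCR and 53.3, 50.5 and 51 under gN1E, and the difference in response was -0.77 (standard error 0.139, adjusted p = 0.00964).

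PXDN, a peroxidase that cross-links collagen in basement membranes, stood at 10.4, 8.74 and 10.0 CPM in AMO1 SCR, 6.80, 6.77 and 7.60 in AMO1 gN1E, 155, 162 and 153 in LP1 SCR and 156, 166 and 165 in LP1 gN1E. It fell in AMO1 from a level far under that of LP1, with a difference of -0.51 (standard error 0.0947, adjusted p = 0.00905). SCN3A, a voltage-gated sodium channel, stood at 3.18, 3.37 and 2.99 CPM in AMO1 SCR and 1.71, 2.29 and 2.45 in AMO1 gN1E. In LP1 it stood at 209.5, 208 and 209 CPM under SCR and 192, 203 and 199.9 under gN1E, also lower without overlap, and it is the 1 gene of the 24 with a negative response in LP1 (-0.07, adjusted p = 0.715). It had a difference of -0.53 (adjusted p = 0.0461) that 15 of 23 alternatives ended. FAM227A fell by 0.63 in AMO1 on the log2 scale, NLRC5, a transactivator of MHC class I genes, by 0.24, and the antisense RNA SLC25A25-AS1 by 0.29. Their differences were -0.86, -0.48 and -0.48 (adjusted p = 0.0204, 0.0076 and 0.0364). Counting was by strand, so reads of SLC25A25 itself are not counted for its antisense RNA.

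Among the genes that rose in LP1, RNF213 (ENSG00000173821.20, chr17:80260852-80398794), a large ubiquitin ligase with ATPase domains, had the lowest adjusted p. It stood at 202, 208 and 208 CPM in LP1 SCR and 263, 253 and 265 in LP1 gN1E, without overlap. In AMO1 it stood at 743, 699 and 712 CPM under SCR and 714, 666 and 636 under gN1E. The difference was -0.43 (standard error 0.0715, adjusted p = 0.00263), and RNF213 and NLRC5 kept their call in all 23 alternatives, while the other 14 genes named below 0 by the naming rule lost theirs in 1 to 15. BCL2L11, the pro-apoptotic protein BIM, stood at 43, 39.5 and 38.8 CPM in LP1 SCR and 48.5, 48.8 and 51.5 in LP1 gN1E, and at 139.9, 132 and 128 in AMO1 SCR and 130.1, 119 and 124 in AMO1 gN1E. Its difference was -0.39 (standard error 0.0798, adjusted p = 0.019). MIR9-1HG, the host transcript of a miR-9 hairpin, differed by -0.52 (adjusted p = 0.0153), TRIM46, which organizes axonal microtubules, by -0.67 (adjusted p = 0.024) and NBPF15 by -0.38 (adjusted p = 0.0178). NBPF15 belongs to a family of near-identical copies, between which reads may be split.

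AIM2, a sensor of cytosolic DNA, passed the threshold in neither line, with responses of -0.28 in AMO1 and 0.43 in LP1, while the difference of -0.71 did (standard error 0.133, adjusted p = 0.0103). RNF207 (-0.71) and ZBTB37 (-0.40) were alike in this, with adjusted p = 0.023 and 0.0388 for the difference. CCDC141 was expressed in AMO1 at 27.4, 33.1 and 28.5 CPM under SCR and 26.6, 24.9 and 28 under gN1E, whereas LP1 held 1 read in its 3 SCR libraries and 15 in its 3 gN1E libraries. With so few reads the fitted difference of -3.93 (standard error 0.807, adjusted p = 0.0204) has no firm size. SHANK2, a synaptic scaffold singled out afterwards, stood at 0.387, 0.440 and 0.419 CPM in AMO1 SCR and 0.0786, 0.164 and 0.159 in AMO1 gN1E, and at 3.61, 3.57 and 3.82 in LP1 SCR and 3.36, 4.45 and 3.47 in LP1 gN1E, a difference of -1.75 (standard error 0.396, adjusted p = 0.0449).

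Some genes responded in both lines. In both lines 52 genes passed the threshold, of which 48 rose in both, 3 fell in both and 1 rose in AMO1 and fell in LP1. Among the 48, the response was larger in AMO1 for 45, and the difference passed for 15, NEAT1 not among them. ARSG, a lysosomal sulfatase, rose from 17, 15.5 and 13.4 CPM to 23.6, 23.8 and 22.9 in AMO1 and from 16.1, 15.4 and 15.6 to 23.4, 22.6 and 25 in LP1, with responses of 0.61 and 0.59 and a difference of 0.02 (standard error 0.112). FDXR, the reductase that feeds electrons to mitochondrial P450 enzymes, fell by 0.39 on the log2 scale in each line, with a difference of 0.01 (standard error 0.114). The differences of RGS16, BCAS3 and ZNF37BP were -0.02, 0.06 and -0.05, with standard errors of 0.0814, 0.0938 and 0.107. These 5 were chosen as the smallest differences among genes past the threshold in both lines, without asking that the difference itself pass.

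Level and response difference were set side by side for each gene. Of all genes tested, 76.6% differed in level, and 38% were higher and 38.6% lower in AMO1 than in LP1 at an adjusted p under 0.05. Of the 69 genes above 0, 28 were higher in AMO1, 38 lower and 3 not different past the threshold, with a median level difference of -0.36. The level was within 2-fold for 38 of the 69 and over 4-fold apart for 10, where 69.8% and 12.7% of all genes with an average of at least 2 log2 CPM fell in those classes. Level differences ranged from -5.42 for PTPRG to 5.04 for PHACTR1. Of the 24 genes below 0, 18 were higher in AMO1 and 6 lower, 8 were within 2-fold and 9 over 4-fold apart. Response differences occurred at near-equal levels, as in EXOC4, whose level difference was 0.31, and KATNAL2 (0.26), and at levels far apart, as in TENM3 (-4.59). TENM3, a teneurin of cell adhesion, stood at 9.79, 9.44 and 9.01 CPM in AMO1 SCR, 15.9, 16.8 and 16.8 in AMO1 gN1E, 288, 283 and 283 in LP1 SCR and 312, 314 and 319.8 in LP1 gN1E, a response difference of 0.66 (standard error 0.0737, adjusted p = 1.39e-05). SEMA4D, a semaphorin of lymphocytes, stood at 17.4, 16.4 and 16.9 CPM in AMO1 SCR and 31.7, 27.1 and 25.2 in AMO1 gN1E against 78.1, 84.8 and 77.1 and 82.9, 82.6 and 87.6 in LP1, a difference of 0.66 (standard error 0.0983, adjusted p = 0.00074).

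**Figure D3:**
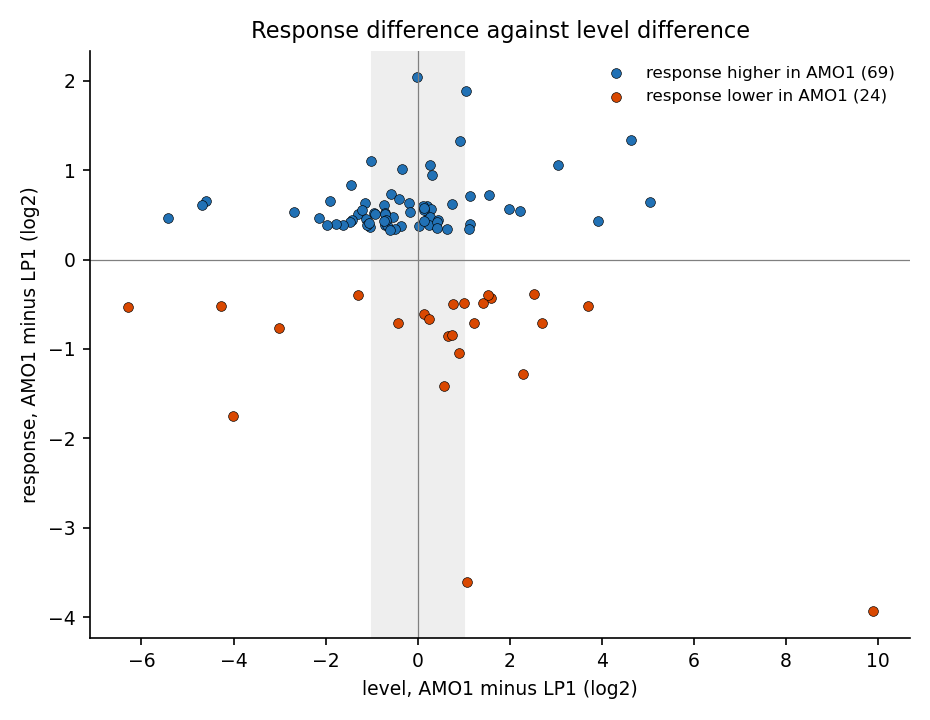
Level in AMO1 minus level in LP1 (horizontal axis, log2, mean of both oligonucleotide labels) against response in AMO1 minus response in LP1 (vertical axis, log2) for the 93 genes outside the 40 targets whose response differed. The shaded band marks levels within 2-fold, which hold 38 of the 69 genes above 0 and 8 of the 24 below.

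The libraries labelled H929 were not used to call these genes. There, 59 of the 69 genes above 0 rose and 2 fell, where 5.47% of 23499 genes tested passed, 3.7% upward and 1.77% downward. The median response of the 69 was 0.63 in H929. Of the 24 genes below 0, 6 fell and none rose in H929, with a median response of -0.14. EXOC4 (1.62), GMDS (1.88), LTB4R (1.18), PPP3CA (1.02) and FOXN3 (0.97) had responses near those of AMO1. CECR2 (-0.02), RNF213 (-0.07) and BCL2L11 (-0.16), which changed in LP1, did not pass in H929, and PHACTR1 fell there as in LP1, by 0.25 (adjusted p = 0.00619). Among the genes below 0, CD180 (-0.68), which fell in AMO1, and AIM2 (-0.53), which passed in neither line, fell in H929. Whether the libraries labelled H929 come from a line other than AMO1 was not tested.

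**Figure D4:**
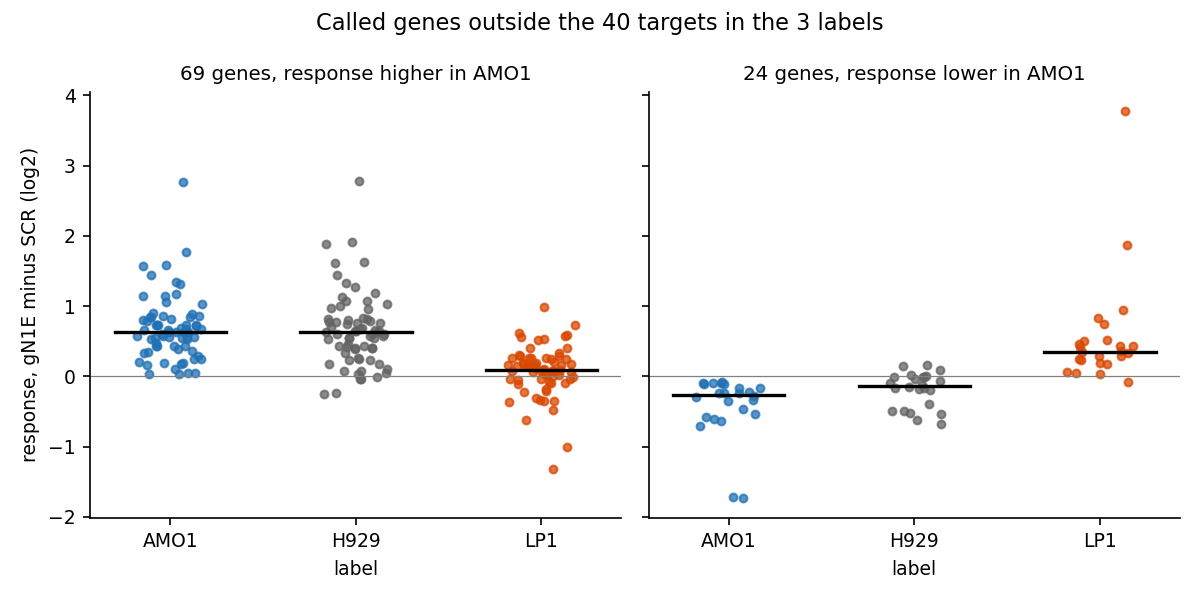
Response (gN1E minus SCR, log2) of the 69 genes above 0 (left) and the 24 genes below 0 (right) in the libraries labelled AMO1, H929 and LP1. Points are genes and bars medians, which are 0.63, 0.63 and 0.10 on the left and -0.26, -0.14 and 0.35 on the right.

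Matches to the NEAT1 segment were counted in both sets of genes. The segment was picked by the response in H929, where 59 of the 69 genes above 0 rose and none of the 24 below did, so that the direction of these counts is not independent of that choice. A run of at least 12 bases is carried by 36 of the 69 genes above 0, by none of the 24 below 0 and by 4.99% of the 11713 genes with an average of at least 2 log2 CPM. A run of at least 13 bases is carried by 17 of the 69 and by 1.35% of those genes. A run of at least 11 bases is carried by 49 of the 69, by 7 of the 24 and by 17.1% of those genes. With DESeq2, 89 of 278 genes above 0 and 1 of 54 below 0 carried at least 12 bases, and without AMO1 SCR replicate D it was 23 of 45 and 0 of 16. The 20 genes above 0 with a shorter run than 11 had a median response of 0.35 in AMO1 and -0.03 in LP1, and 12 of them were below 0 in LP1. The 49 with at least 11 bases had medians of 0.66 in AMO1 and 0.15 in LP1, and 9 of them were below 0 in LP1.

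Over all genes with an average of at least 2 log2 CPM other than NEAT1, the median response was higher at longer runs, and lower in LP1 than in AMO1 for runs of 10 or more bases. For the 158 genes with 13 or more bases, the median response was 0.22 in AMO1 and 0.09 in LP1, and 21 (13.3%) differed between the lines above 0. For the 426 genes with 12 bases it was 0.07 in AMO1 and 0.02 in LP1, and 22 (5.16%) differed. For the 1420 genes with 11 bases it was 0.04 and 0.01, and 14 (0.986%) differed above 0 and 6 below. For the 3601 genes with 9 bases it was -0.01 in each line, and 2 differed above 0 and 6 below. For the 3082 genes with 8 or fewer bases it was -0.04 in AMO1 and -0.03 in LP1, and 4 differed above 0 and 3 below. These counts include the 40 targets. Of the 158 genes with 13 or more bases, 64 rose in AMO1 and 14 in LP1, and of the 3601 with 9 bases 15 and 13 did, where 1.54% and 0.303% of all genes tested rose. No test was made of this relation, since genes are not replicates, and whether the match has a part in the responses was not tested.

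**Figure D5:**
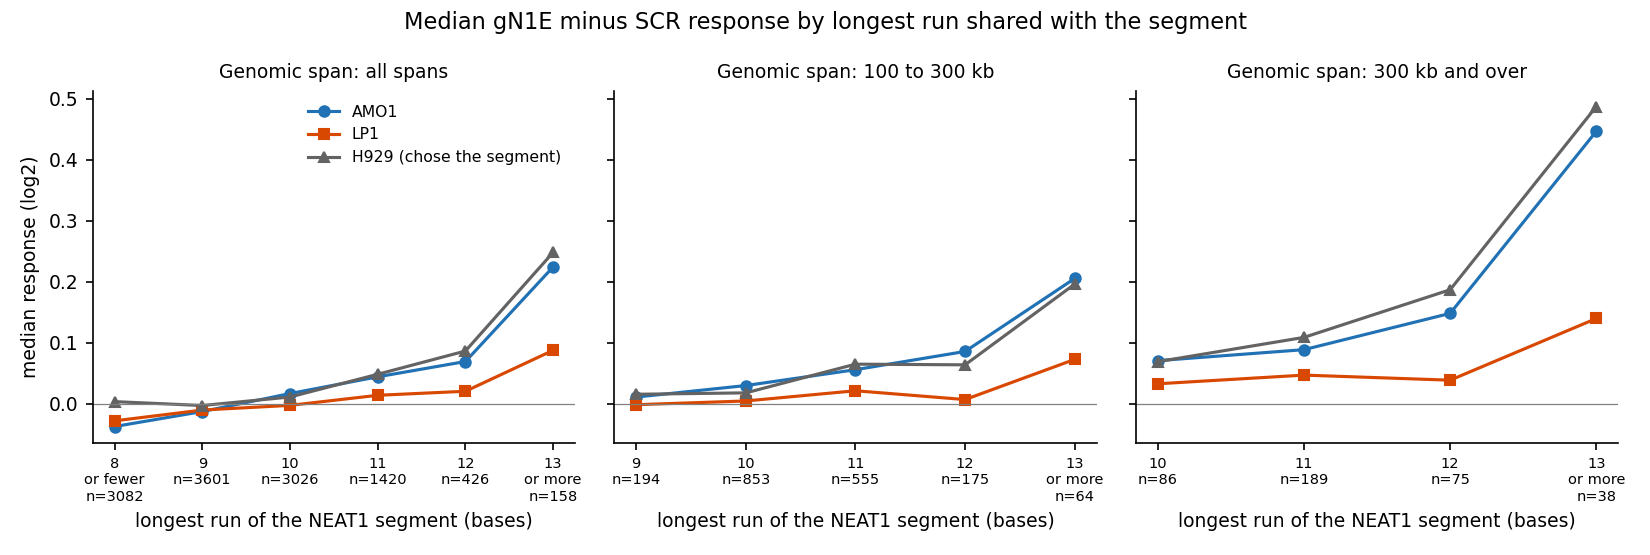
Median response (log2) of genes with an average of at least 2 log2 CPM by the longest run of the NEAT1 segment on their transcribed strand (bases), for all genomic spans, spans of 100 to 300 kb and spans of 300 kb and over. The median for 13 or more bases was 0.22 in AMO1 and 0.09 in LP1 over all spans, and 0.45 and 0.14 for spans of 300 kb and over. H929 chose the segment.

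Long genes hold longer runs and also made up more of the calls. The 69 genes above 0 span a median of 155 kb of the genome from first to last base, the 24 below 0 a median of 44.7 kb, and all genes with an average of at least 2 log2 CPM 31.9 kb. With the targets included, and among genes with an average of at least 2 log2 CPM, the share called above 0 was 0.195% of genes under 30 kb, 0.444% from 30 to 100 kb, 1.63% from 100 to 300 kb, 3.79% from 300 to 600 kb and 8.45% over 600 kb. Under 30 kb, of the genes above 0, LTB4R, MDH1 and PTGR3 carry at least 11 bases. NOP9, BTN2A2, TXNIP, PAICS, ZNF830, MIR600HG, MKRN4P and GGH do not, and the share of all genes of that span was not counted. Shares with a long run were counted within the span classes from 30 kb up. From 30 to 100 kb, 12 of 15 genes above 0 carry at least 11 bases, against 17.7% of all genes of that span, and from 100 to 300 kb 17 of 23 do, against 43.1%. At 300 kb and over, 15 of 17 do, against 77.8%, which is near the share of all genes of that span. Among genes of 100 to 300 kb the median response in AMO1 and LP1 was 0.21 and 0.07 with 13 or more bases, 0.09 and 0.01 with 12, and 0.06 and 0.02 with 11. At 300 kb and over it was 0.45 and 0.14 with 13 or more bases, 0.15 and 0.04 with 12, and 0.09 and 0.05 with 11. In LP1 the order thus did not hold between 11 and 12 bases within either span class.

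Of the gene lists examined, few had members whose response differed. Of all genes tested, 0.4% differed, 0.307% above 0. In a list of synapse, axon guidance and adhesion genes, 4 of 44 tested members differed, all above 0: TENM3, ROBO1 (0.42), a guidance receptor, PTPRG (0.46), a receptor phosphatase, and NCAM1 (0.39), an adhesion molecule of plasma cells and neurons. PTPRG rose from 3.48, 3.52 and 2.97 CPM to 8.92, 8.86 and 9.48 in AMO1 and from 149, 176 and 178 to 320.3, 332 and 340.2 in LP1. These 4 carry runs of 12 to 14 bases and are long, from 317 kb (NCAM1) to 1171 kb (ROBO1). Of all genes with an average of at least 2 log2 CPM, 3.79% from 300 to 600 kb and 8.45% over 600 kb differed above 0. Whether the list differs from other genes of its length was not tested. The median difference of the list was 0.20. SHANK2, a synaptic scaffold that differed below 0 (-1.75), is not on this list. EXOC4 was the 1 of 17 exocyst and vesicle tethering genes that differed, with a list median of 0.06. Of 54 genes of the G2/M phase KIF11 and TPX2 differed, both targets of the study and both above 0, with a list median of 0.13, and none of 43 S phase genes did.

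None of the 43 tested members of a list of interferon-stimulated genes differed, although 3 fell in AMO1 and 5 in LP1, with median responses of -0.17 and -0.19. NLRC5 (-0.48), AIM2 (-0.71) and RNF213 (-0.43), which differed below 0, are not on this list. Of all genes, 0.563% fell in AMO1 and 0.21% in LP1. None of 15 paraspeckle proteins, 24 p53 targets, 24 genes of the unfolded protein response, 20 targets of NF-kappa-B or 10 plasma cell markers differed, with list medians between -0.01 and 0.12. Nor did any of 20 immediate early genes (list median 0.21), 23 genes of cholesterol synthesis, 15 of B cell receptor signalling, 18 of actin and myosin, 83 cytosolic ribosomal proteins or 61 replication-dependent histones differ, or any of the few tested markers of B cells, T cells, myeloid cells, fibroblasts and erythroid cells. The 37 genes of the mitochondrial genome had a median response of 0.10 in AMO1 and -0.41 in LP1, and none of their differences passed. Their share of the counts in LP1 reached 3.48% under SCR and 2.35% under gN1E, and its part in that median was not tested. The 40 targets had a median difference of 0.23, with median responses of 0.33 in AMO1 and 0.07 in LP1, and 34 rose in AMO1 and 3 in LP1. The study chose them by their change in AMO1 cells, so these counts are not independent evidence of a direction.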

How the data were processed

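Total RNA was read as stranded libraries from 18 samples, of which the 12 labelled AMO1 or LP1 enter the comparison. The authors deposited raw counts of read pairs per gene, made with STAR 2.7.10a and featureCounts 1.6.4 on hg38 by the submitters' processing notes, counted by strand. The table holds 62703 genes, of which 62639 have a name. For some of them the name is only an Ensembl identifier, and these count as genes without a symbol. No library repeats another.

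A gene was kept where 1 library or more held 10 or more reads. Counts were scaled by TMM and fitted in edgeR 4.0.16 (R 4.3.3) with a robust quasi-likelihood model, and p-values were adjusted by Benjamini-Hochberg over all genes, with a threshold of 0.05. H929 was fitted separately on its 6 libraries. The interaction test was tried on 1 set of simulated counts of 25081 genes with the spread estimated from these libraries. A difference was put into 200 genes, 50 for each fold, all with an average of at least 2 log2 CPM. The test recovered 62% of genes with a 1.5-fold, 94% with a 2-fold, 90% with a 3-fold and 100% with a 4-fold difference. Of its calls, 6.49% were false. Recovery of genes under that level was not simulated.

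Genes were named by a rule: among genes past the threshold with a symbol, outside the 40 targets and with an average of at least 2 log2 CPM, the 15 largest differences in each direction with at least 1 CPM in each line and libraries of at least 1 line that do not overlap, and up to 5 genes with under 1 CPM in a line. Of genes past the threshold in both lines, the 5 largest and 5 smallest differences were named, whether or not the difference passed. List members past the threshold were named with their list. Members and lists were chosen with earlier results of these data known. The alternatives were limma 3.58.1, DESeq2 1.42.0, other scalings and filters, an offset by genomic span, thinning, a replicate block, a joint fit of 18 libraries and each library left out. Counts of genes with a run, and the calls of each line under the alternatives, were added after seeing the data. Matches to NEAT1 were searched on the transcribed strand of the whole gene in hg38. Cell cycle lists came from Seurat 5.3.0. Some items are not reported here.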

Additional observations from a re-analysis of the deposited data

Results flagged for a closer look

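The response to the oligonucleotide differed between the libraries labelled AMO1 and LP1 for 103 genes, each by the interaction test of edgeR's quasi-likelihood fit with an adjusted p under 0.05. The values in brackets are the response in AMO1 minus the response in LP1, on the log2 scale, for the genes named by the naming rule and those singled out, outside the 40 targets. The difference was above 0 for LRGUK (2.04), AFF2 (1.89), MKRN4P (1.34), LTB4R (1.10), CECR2 (1.06), KATNAL2 (1.06), GMDS (1.02), EXOC4 (0.95), NOP9 (0.83), PPP3CA (0.73), PPM1L (0.73), TRPS1 (0.71), UBE2H (0.67), TENM3 (0.66), SEMA4D (0.66), PHACTR1 (0.65), FOXN3 (0.64), ZWILCH (0.63), TTC27 (0.63), RASGRP3 (0.55), PTPRG (0.46), ROBO1 (0.42) and NCAM1 (0.39). It was below 0 for CCDC141 (-3.93), SHANK2 (-1.75), CD180 (-1.04), FAM227A (-0.86), DYNC2H1 (-0.77), RNF207 (-0.71), AIM2 (-0.71), TRIM46 (-0.67), SCN3A (-0.53), MIR9-1HG (-0.52), PXDN (-0.51), SLC25A25-AS1 (-0.48), NLRC5 (-0.48), RNF213 (-0.43), ZBTB37 (-0.40), BCL2L11 (-0.39) and NBPF15 (-0.38). LRGUK, AFF2, SHANK2 and RASGRP3 were singled out after their values were seen. Single libraries far from their group were not looked for, since each group has 3 libraries.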

How the results depend on the processing

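The count of 103 genes whose response differed moved by over 1.5 times with limma-voom (58), DESeq2 (360), no filter beyond 1 read (265), the joint fit of 18 libraries (196), the replicate letter as a block (184), the block with the genomic span offset (160), and an adjusted p under 0.1 with a 1.5-fold difference (61). With 1 library left out it ran from 62 to 136. Of the 103, 55 were among the calls of limma-voom, 99 among those of DESeq2, 102 among those of the block and 69 of 90 with library size only. Calls of the AMO1 response (543) were 916 with DESeq2 and 937 with the block, and from 325 to 668 with 1 library left out. Calls of the LP1 response (132) were 379 with DESeq2, 562 with no filter, 259 in the joint fit, 388 with the block, 366 with the block and span offset and 81 with counts thinned to the shallowest library, and from 39 to 239 with 1 library left out, with 39 without LP1 SCR replicate A. The difference of NEAT1 passed with the replicate block (0.51, adjusted p = 0.00236) and with the block and span offset (0.53, adjusted p = 0.00252), and ran from 0.43 to 0.67, without passing, with 1 library left out. The correlation of same-lettered SCR and gN1E libraries was 0.29 (A), 0.21 (C) and 0.15 (D) in AMO1 and 0.24 (A), -0.05 (B) and -0.14 (D) in LP1. Every pair was over 0.1 in AMO1 and 1 of 3 pairs in LP1, the labels do not say what a letter marks, and the fit without the block was kept for the comparison of both lines. The cause of these shifts was not tested. Level calls and the H929 values of the called genes stayed within 1.5 times of their main count. Of 33 named genes past the threshold, 15 kept their call in all 23 alternatives, and of 759 values 631 kept their call and direction, 128 lost the call and 0 changed direction. The lowest total count was 28061606, in AMO1 gN1E. CCDC141 and MKRN4P had few reads in LP1 and not in AMO1, so the sizes of their differences are not firm. In LP1, CCDC141 held 1 read under SCR and 15 under gN1E, and MKRN4P held 96 and 30.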
